A study of Mus musculus with 6 samples.

Results

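Complex III of the respiratory chain was followed in inguinal white adipose tissue (iWAT) of mice that overexpress the homeobox transcription factor Hlx. The members were the 9 subunit genes *Uqcrc1*, *Uqcrc2*, *Cyc1*, *Uqcrfs1*, *Uqcrb*, *Uqcrq*, *Uqcrh*, *Uqcr10* and *Uqcr11*, taken by symbol from the 19445 gene loci of the deposited expression table. Each of the 9 symbols was found on 1 row, and all 9 passed the filter on low values that left 11692 loci for testing. The table holds 3 *Hlx* transgenic (TG) and 3 wild-type (WT) mice at 12 weeks of age, with 1 RNA library from the iWAT of each mouse. In the transgenic mice the aP2 (*Fabp4*) promoter drives an *Hlx* cDNA, on a C57BL/6 and SJL hybrid background that was crossed back to C57BL/6, and the controls were littermates without the transgene. The aP2 promoter is active in fat cells of any depot, so the transgene is not limited to iWAT. Levels are FPKM, a density of reads divided by both the length of the transcript and the number of mapped reads, which puts genes of unlike length on a common scale.

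Complex III, or cytochrome bc1, takes electrons from ubiquinol and passes them to cytochrome c while it pumps protons across the inner mitochondrial membrane. Electrons reach the ubiquinone pool from complexes I and II and from several dehydrogenases, and complex IV takes them from cytochrome c to oxygen. Brown and beige fat cells are rich in mitochondria and burn fuel through this chain when the uncoupling protein Ucp1 lets protons flow back without ATP synthesis. One subunit of complex III, cytochrome b, is encoded by mitochondrial DNA (*mt-Cytb*) and was not analysed here.

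Upstream sequence is shown for the gene with the largest rise, for that with the smallest, and for the other gene with a motif match, in order to place the differences between subunits beside their promoters. The sequences are the 250 bases before the RefSeq transcription start on assembly GRCm38.p6 (mm10), read along the gene's strand, and capitals mark a match to the GABPA motif CCGGAAG on either strand.
Uqcrc1: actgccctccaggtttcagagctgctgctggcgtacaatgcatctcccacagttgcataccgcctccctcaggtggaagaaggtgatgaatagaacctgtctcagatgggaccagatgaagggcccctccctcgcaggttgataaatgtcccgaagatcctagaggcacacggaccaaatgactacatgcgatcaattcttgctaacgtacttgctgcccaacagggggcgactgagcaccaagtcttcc
Uqcrh: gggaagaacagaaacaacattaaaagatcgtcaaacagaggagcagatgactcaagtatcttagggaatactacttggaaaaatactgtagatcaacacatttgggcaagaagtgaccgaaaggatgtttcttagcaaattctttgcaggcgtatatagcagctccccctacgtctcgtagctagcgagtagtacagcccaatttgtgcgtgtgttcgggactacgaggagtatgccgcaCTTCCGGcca
Uqcr11: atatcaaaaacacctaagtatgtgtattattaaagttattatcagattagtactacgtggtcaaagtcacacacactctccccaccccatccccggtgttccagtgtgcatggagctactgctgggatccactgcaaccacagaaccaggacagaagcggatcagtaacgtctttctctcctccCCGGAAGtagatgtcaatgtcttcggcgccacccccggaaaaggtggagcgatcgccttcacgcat
The *Uqcrc1* window is chr9:108936398-108936647 on the plus strand, that of *Uqcrh* is chr4:116075071-116075320 on the minus strand, and that of *Uqcr11* is chr10:80406822-80407071 on the minus strand. Upstream sequence was used for 5 of the 9 genes, these 3 with *Uqcrfs1* and *Uqcr10*, and that of *Uqcrc2*, *Cyc1*, *Uqcrb* and *Uqcrq* was not analysed here. The GABPA motif was found in 2 of the 5, at positions -10 to -4 of *Uqcrh* on the reverse strand and at -66 to -60 of *Uqcr11* on the forward strand, and 6.91% of 32851 promoter windows of this length hold it. None of the 5 windows held a motif for NRF1 (GCGCANGCG, in 5.16% of all windows), ERR (TNAAGGTCA, 1.14%), YY1 (AANATGGCG, 1.12%), SP1 (GGGCGG, 32.7%) or a homeodomain core (TAATTA, 4.84%) on either strand. TAATTA is a general core and not the Hlx binding motif that the paper used, over longer promoter regions. The Hlx sites that the paper lists do not contain TAATTA, so Hlx sites were not searched here. The last bases of the *Uqcrc1*, *Uqcrfs1* and *Uqcr11* windows, and the last base of the *Uqcrh* window, lie within the gene in the GENCODE annotation. Its starts differ from those of RefSeq.

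*Hlx* had 110, 79.6 and 99.5 FPKM in TG replicates 1, 2 and 3 and 6.88, 7.35 and 8.14 FPKM in WT replicates 1, 2 and 3. *Ucp1* had 634, 541 and 600 FPKM in the TG mice against 57.8, 17.5 and 35.5 FPKM in the WT mice. The summed FPKM of a sample lay between 466059 and 542096, and the absolute depth is unknown. *Xist* had 20.2 to 33.6 FPKM in the 6 samples and the 28 loci of chromosome Y were listed at 0 in all of them, although the labels give the mice as male. The summed FPKM of 11 skeletal muscle markers was 115, 801 and 159 in the TG mice and 9.71, 175 and 48.6 in the WT mice, and none of the 10 tested passed the test. All 8 macrophage markers had a negative log2 fold change and 5 of them were called lower in the TG mice. Their sum was 499 to 715 FPKM in the TG mice against 945 to 1271 FPKM in the WT mice. Of 8 brown and beige fat markers 7 were higher, with sums of 6130 to 7934 FPKM in the TG and 613 to 1052 FPKM in the WT mice, while the sums of 8 endothelial markers were 172 to 180 and 168 to 175 FPKM, with 2 of them called higher and 1 lower. The 7 adipocyte markers with a row marked the tissue as fat and summed to 28295 to 33640 FPKM in the TG and 24005 to 29725 FPKM in the WT mice, with *Adipoq* the only one that passed the test, as lower. Most of each sum was *Fabp4*, at 24561 to 29363 FPKM in the TG and 19297 to 23539 FPKM in the WT mice. Sums of lymphocyte markers were 173 to 264 and 257 to 376 FPKM (1 of 7 called lower), those of epithelial markers 127 to 258 and 217 to 295 FPKM (0 of 7 called), and those of fibroblast markers 1329 to 1856 and 1651 to 2233 FPKM (0 of 8 called). The part of other cell types in the results was not tested.

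Each of the 9 complex III subunit genes had more RNA in every TG mouse than in every WT mouse, by 1.65-fold for *Uqcrh* to 3.17-fold for *Uqcrc1*. All 9 passed the test as higher (limma on log2(FPKM + 1), Benjamini-Hochberg adjusted p of 0.00077 to 0.010, two-sided), and their median log2 fold change was 1.16 against -0.01 for all 11692 loci. Of all loci tested, 11.6% were called higher and 7.03% lower, 22.8% had every TG mouse above every WT mouse, and 4.56% had a ratio of mean FPKM of 2 or more, which 7 of the 9 subunits had. The number of loci called higher was 1352 and fell to 780 without WT replicate 3, 812 without TG replicate 3 and 851 without WT replicate 2, and the 822 called lower fell to between 329 and 493 without any single mouse other than TG replicate 2, while all 9 subunits stayed called as each mouse was left out. The exact permutation test gave p = 0.1 for each subunit, the smallest two-sided p that 3 against 3 mice allow. Among the log2 fold changes of all loci tested, the 9 values stood between the percentiles 94.2 (*Uqcrh*) and 99.1 (*Uqcrc1*). In bulk tissue, more cells rich in these transcripts and more of them per cell cannot be told apart.

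**Figure D1:**
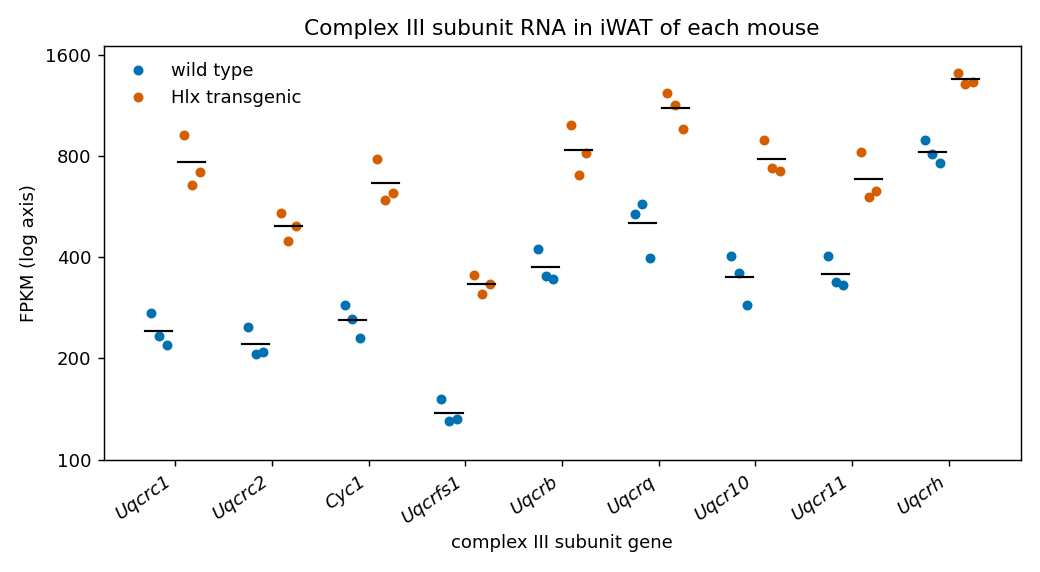
FPKM of the 9 complex III subunit genes (x axis) on a log axis, with 1 point for each mouse and a black line at the mean of 3 mice. The points of the transgenic mice lie above those of the wild-type mice for each gene, with the widest gap for Uqcrc1 (3.17-fold) and the narrowest for Uqcrh (1.65-fold).

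The core proteins Uqcrc1 and Uqcrc2 form the large part of the complex that faces the matrix. *Uqcrc1* (chromosome 9 from 108936648 to 108949641, 13 exons) had 922, 658 and 719 FPKM in TG replicates 1 to 3 and 273, 233 and 219 FPKM in WT replicates 1 to 3. The lowest TG value was thus far above the highest WT value, and the rise from 241 ± 28.0 to 766 ± 138 FPKM (SD, n = 3 mice each) was the largest of the 9 (log2 fold change 1.65, 95% interval 1.28 to 2.03, limma adjusted p = 0.0012). *Uqcrc2* (chromosome 7 from 120635189 to 120670343, 14 exons) had 542, 448 and 497 FPKM in the TG and 248, 206 and 209 FPKM in the WT mice, and its log2 fold change was 1.16 (95% interval 0.87 to 1.45, limma adjusted p = 0.0018). Positions of the subunits are those of the listed loci, which can differ from the gene. The *Uqcrc2* locus is also that of *Pdzd9*, and GENCODE ends the *Uqcrc2* gene at 120659524. Both core genes rose without overlap, by 3.17-fold and 2.24-fold. The 3' end of *Uqcrc2* overlaps exons of *Pdzd9* on the other strand over 504 bases, or 26.6% of its transcript, and the libraries do not mark strand. *Pdzd9* was listed at 0.067 to 0.235 FPKM in the 6 samples, near 0 beside the *Uqcrc2* level.

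The redox subunits carry the electrons. *Cyc1*, cytochrome c1, hands them to cytochrome c, and had 784, 594 and 619 FPKM in the TG and 288, 262 and 229 FPKM in the WT mice (chromosome 15 from 76343523 to 76345934). Its log2 fold change of 1.35 (95% interval 1.00 to 1.70, limma adjusted p = 0.0020) was the second largest. *Uqcrfs1*, the Rieske iron-sulfur protein, moves electrons from ubiquinol to cytochrome c1, and had 355, 312 and 333 FPKM in the TG and 152, 130 and 132 FPKM in the WT mice (chromosome 13 from 30539428 to 30545391). Its spread was small in both genotypes, and its rise (1.27 on the log2 scale) had both the smallest error of the 9 (0.10, SE) and the smallest limma adjusted p, 0.00077. The core and redox genes together had a median log2 fold change of 1.31, and all 4 had a ratio of 2 or more.

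The small subunits surround the core and help to hold it together. *Uqcrb*, a subunit at the ubiquinone side, had 989, 703 and 815 FPKM in the TG and 424, 351 and 345 FPKM in the WT mice (chromosome 13 from 66900615 to 66909166, log2 fold change 1.15, limma adjusted p = 0.0045). GENCODE ends the *Uqcrb* gene at 66905378, and 50 bases, or 9.35% of its transcript, overlap *Gm10767* on the other strand. *Uqcrq* had 1229, 1134 and 962 FPKM in the TG and 538, 577 and 398 FPKM in the WT mice (chromosome 11 from 53428948 to 53430831, log2 fold change 1.15, limma adjusted p = 0.0070). *Uqcr10* had 896, 739 and 723 FPKM in the TG and 403, 358 and 288 FPKM in the WT mice (chromosome 11 from 4701812 to 4704624, log2 fold change 1.17, limma adjusted p = 0.0042). These 3 small subunits rose by nearly the same amount, 1.15 to 1.17 on the log2 scale, which was close to the 1.16 of *Uqcrc2*. *Uqcr11*, one of the smallest subunits, had 824, 603 and 631 FPKM in the TG and 404, 338 and 332 FPKM in the WT mice (chromosome 10 from 80402997 to 80406821, log2 fold change 0.93, limma adjusted p = 0.0092). *Uqcrh*, the acidic hinge protein that sits beside cytochrome c1, had 1415, 1314 and 1326 FPKM in the TG and 892, 810 and 761 FPKM in the WT mice (chromosome 4 from 116066965 to 116075070). Its TG values were the tightest of the 9, with a coefficient of variation of 4.07%, and its log2 fold change of 0.72 (95% interval 0.42 to 1.02, limma adjusted p = 0.010) was the smallest. It was also the one subunit to lose its call under an alternative, with an adjusted p of 0.069 (limma) when no filter on low values was used. Of the 5 genes whose upstream sequence was searched, the 2 with a GABPA motif match, printed above, had the 2 smallest rises, which is a description of 5 genes and not a test.

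Some reads of *Uqcrb* may belong to other genes that share sequence with it, and some of *Uqcrc2* to *Pdzd9*, which overlaps it. Of the windows of 100 bases in the *Uqcrb* transcript, 15.8% also occur in 3 pseudogenes, and 22.7% of those of *Uqcrc2* occur in *Pdzd9*, while none of the windows of the other 7 subunits occur in another gene. Copies of at least 90% identity over 100 bases or more were found for *Uqcrb* (4), *Uqcrh* (2), *Uqcr10* (2), *Uqcr11* (2) and *Uqcrq* (1) among annotated transcripts. *Uqcrc2* matched only the overlapping *Pdzd9*. *Uqcrc1*, *Cyc1* and *Uqcrfs1* had none. The highest identity of a copy was 98.8% for *Uqcr11*, 98.2% for *Uqcrb*, 96.8% for *Uqcr10*, 94.8% for *Uqcrh* and 91.8% for *Uqcrq*. The value of *Uqcrb* is uncertain to the extent that reads were placed on its pseudogenes. For the other genes with near copies, the placing of reads was not tested.

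The measured rise differed in size between the subunits, from 1.65-fold to 3.17-fold. To set the subunits against each other, the mean log2 FPKM of the 9 genes was subtracted within each mouse, which removes any scaling of a library. *Uqcrc1* stood at 0.16, -0.02 and 0.06 in the TG and -0.40, -0.45 and -0.40 in the WT mice, a gain of 0.48 on the log2 scale relative to the mean of the 9. *Cyc1* gained 0.18, from -0.32, -0.28 and -0.33 in the WT to -0.07, -0.16 and -0.15 in the TG mice. *Uqcrh* stood at 0.78, 0.98 and 0.95 in the TG and 1.32, 1.35 and 1.40 in the WT mice, and so fell by 0.45 relative to that mean although its own level rose. *Uqcr11* fell by 0.25 in the same measure. For these 4 genes the genotypes did not overlap, and for the other 5 they did, with differences of -0.03 to 0.10. Because the mean of the 9 was subtracted, a gain of some genes requires a fall of others. No test was run on these centred values, and no share over all loci is given for this measure. As a percent of the summed FPKM of the 9 genes, *Uqcrh* went from 25.2% in the WT to 19.3% in the TG mice and *Uqcrc1* from 7.39% to 10.9%.

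**Figure D2:**
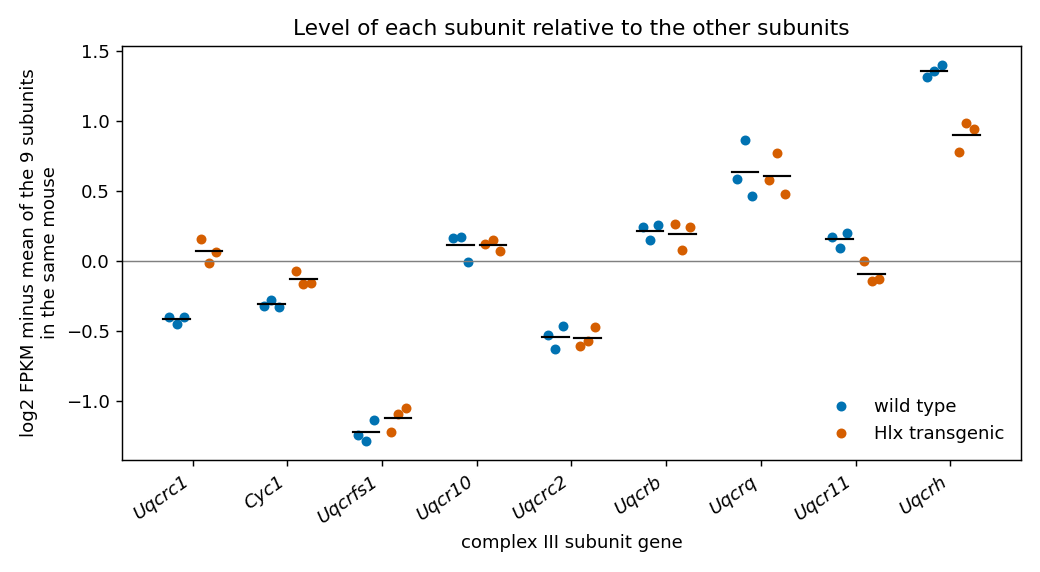
Level of each complex III subunit relative to the mean of the 9 subunits in the same mouse (y axis, log2 FPKM), with 1 point for each mouse, a black line at the mean of 3 mice, and genes ordered by the difference between genotypes. Uqcrc1 and Cyc1 are higher, and Uqcr11 and Uqcrh lower, in all transgenic mice than in all wild-type mice, and the other 5 genes overlap.

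Of the 36 ratios between a pair of subunits, 23 did not overlap between the genotypes, and of the ratios between all pairs of the 11692 loci tested 43.8% did not. The 36 ratios share genes, and all 15 that hold *Uqcrc1* or *Uqcrh* are among the 23. The ratio of *Uqcrc1* to *Uqcrh* was 0.652, 0.501 and 0.542 in the TG and 0.306, 0.287 and 0.287 in the WT mice, a 1.91-fold difference and the largest of the 36. The ratio of *Uqcrc1* to its partner in the core, *Uqcrc2*, was 1.70, 1.47 and 1.45 in the TG and 1.10, 1.13 and 1.05 in the WT mice, or 1.41-fold higher. In 19 of the 20 pairs of a core or redox gene with a small subunit gene the former rose more, and 13 of these 20 pairs did not overlap. *Uqcrb* to *Uqcrq* was at the other end, with ratios of 0.804, 0.620 and 0.847 in the TG and 0.789, 0.609 and 0.865 in the WT mice. No ratio passed the exact permutation test, which was the only test run on the ratios and in which 3 against 3 mice cannot give a p under 0.1. The smallest p was 0.157 after Benjamini-Hochberg adjustment over the 36 pairs.

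The order of the subunits by level was partly shared by the genotypes. *Uqcrh* and *Uqcrq* were the highest and *Uqcrc2* and *Uqcrfs1* the lowest in all 6 mice. *Uqcrc1* was in position 7 of 9 in each WT mouse and in position 4, 5 and 5 in TG replicates 1, 2 and 3. The ratio of the highest to the lowest subunit was 5.78 to 6.21 in the WT and 3.98 to 4.21 in the TG mice, so the levels lay closer together in the TG mice. In the TG mice the ranges of neighbours in this order overlapped from *Uqcrq* through *Uqcrb*, *Uqcr10*, *Uqcrc1* and *Uqcr11* to *Cyc1*, and in the WT mice from *Uqcrq* through *Uqcrb* and *Uqcr11* to *Uqcr10* and from *Cyc1* through *Uqcrc1* to *Uqcrc2*. The top gene *Uqcrh* and the bottom gene *Uqcrfs1* did not overlap their neighbours in either genotype. By mean FPKM over the 6 samples the 9 genes ranked from 44 (*Uqcrh*) to 311 (*Uqcrfs1*) of 11692 loci. Their coding transcripts run from 434 bases (*Uqcr10*) to 1896 bases (*Uqcrc2*). The part of transcript length and of near copies in this order was not tested.

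Mice of a genotype also differed from each other in a shared way. TG replicate 1 was the highest TG mouse for 9 of 9 subunits and TG replicate 2 the lowest for 7, and WT replicate 1 was the highest WT mouse for 8 and WT replicate 3 the lowest for 7. The FPKM sum of all loci was also highest in TG replicate 1 (542096) and WT replicate 1 (518450) within their genotypes. It was lowest in WT replicate 3 (466059) and, of the TG mice, in replicate 3 (504083) rather than replicate 2 (514537). The part of this scale in the subunit levels was not tested. TG replicate 1 also had the most *Hlx* and *Ucp1* RNA of the TG mice, and TG replicate 2 the least of both and the most skeletal muscle marker RNA. In the WT mice replicate 1 had the most *Ucp1* but the least *Hlx* RNA, replicate 2 the least *Ucp1* RNA and replicate 3 the most *Hlx* RNA. Without TG replicate 2 the log2 fold changes of the subunits lay between 0.74 and 1.76.

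Complex III made up 1.47%, 1.26% and 1.31% of all FPKM in the TG and 0.699%, 0.690% and 0.625% in the WT mice. The summed FPKM of the 9 genes was 7028 ± 805 in the TG and 3267 ± 354 in the WT mice (SD, n = 3 each). Relative to complex V, the ATP synthase, the sum was 0.695, 0.696 and 0.695 in the TG and 0.555, 0.563 and 0.555 in the WT mice. Relative to complex I it was 0.572, 0.584 and 0.571 against 0.510, 0.496 and 0.498, so complex III was higher against both without overlap, also with any single gene of either sum left out. Against complex IV it was 0.411, 0.416 and 0.435 in the TG and 0.490, 0.476 and 0.510 in the WT mice, which turned with the genes summed. Without *Cox7a1* and *Cox8b*, isoforms of brown fat and muscle, this ratio was 0.561, 0.574 and 0.590 in the TG and 0.550, 0.512 and 0.565 in the WT mice, higher on average and overlapping, and without *Cox8b* alone the genotypes overlapped too. Against complex II it was 3.24, 3.56 and 3.42 in the TG and 3.74, 3.85 and 3.62 in the WT mice, lower without overlap, but the genotypes overlapped when *Uqcrh*, *Uqcr11*, *Sdha* or *Sdhb* was left out. No test was run on these ratios.

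**Figure D3:**
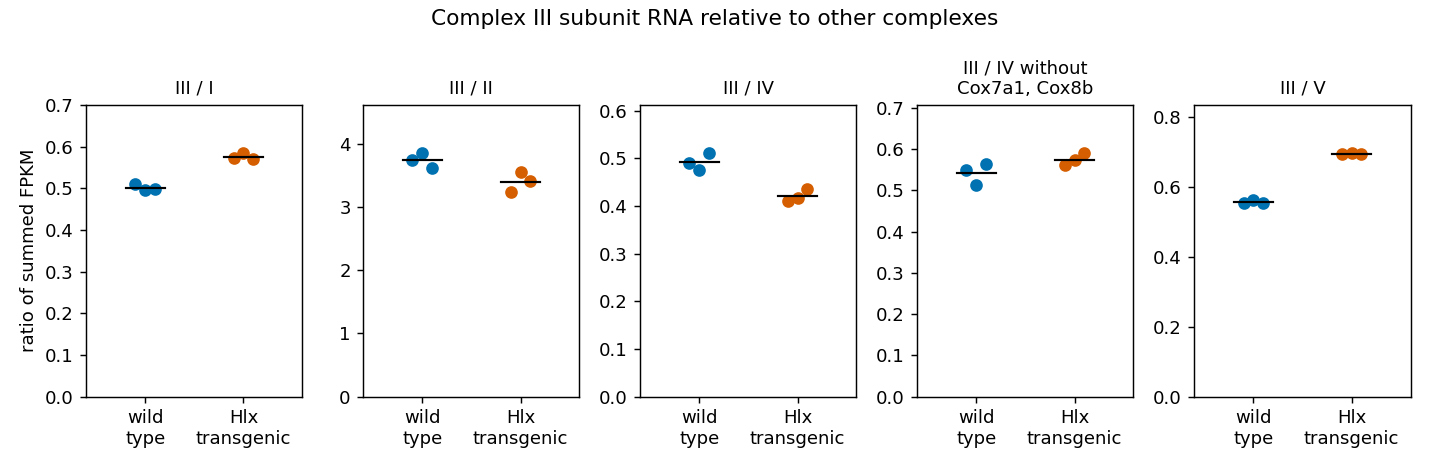
Summed FPKM of the 9 complex III subunit genes divided by that of complex I, II, IV, IV without Cox7a1 and Cox8b, or V in the same mouse (y axes start at 0), with 1 point for each mouse and a black line at the mean of 3 mice. The ratios to complexes I and V are higher in each transgenic mouse than in each wild-type mouse and those to complexes II and IV lower, but without Cox7a1 and Cox8b the ratio to complex IV overlaps (0.561 to 0.590 against 0.512 to 0.565).

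*Cox7a1* had 1532, 973 and 1124 FPKM in the TG and 81.8, 58.6 and 71.5 FPKM in the WT mice. *Cox8b* had 3618, 3323 and 2855 FPKM in the TG and 734, 424 and 479 FPKM in the WT mice, more than any complex III subunit in the TG mice. Complex III has no such tissue isoforms among its 9 members, and the largest rise in it, that of *Uqcrc1*, was near that of *Ndufv1*, the largest of complex I (log2 fold change 1.63).

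Most subunits of the other complexes were also higher in the TG mice. Of complex I, 34 of 36 genes were called higher with a median log2 fold change of 0.88, and *Ndufa2* (0.49, limma adjusted p = 0.081) and *Ndufs5* (0.53, limma adjusted p = 0.063) were not called, though *Ndufs5* passed the test without TG replicate 2 (0.63, limma adjusted p = 0.04996). All 4 genes of complex II were called higher, with a median of 1.22. Of complex IV, 13 of 16 were called higher with a median of 1.05, and *Cox4i2* (0.09), *Cox6b2* (0.68) and *Cox6a2* (1.05) were not called. These uncalled genes of complex IV were low, with means of 2.70 to 9.70 FPKM in either genotype. *Cox6a2* had 2.11, 21.1 and 3.62 FPKM in the TG and 0.709, 4.79 and 2.59 FPKM in the WT mice. It was thus highest in replicate 2 of either genotype, which also had the most skeletal muscle marker RNA, a link that was not tested. Of complex V, 9 of 16 were called higher with a median of 0.68, led by *Atp5b* (1.22), and the lowest values were those of *Atp5g3* (-0.39, limma adjusted p = 0.12), *Atp5g1* (-0.33) and *Atp5j* (-0.19). A ratio of 2 or more was reached by 7 of 9 genes in complex III, 12 of 36 in complex I, 4 of 4 in complex II, 10 of 16 in complex IV and 2 of 16 in complex V. Every TG mouse was above every WT mouse for all 36 genes of complex I and all 4 of complex II, as for complex III. The same held for 13 of 16 genes of complex IV, 11 of 16 of complex V and 22.8% of all loci tested. Under quantile normalization the medians were 0.85 for complex III, 0.57 for complex I, 0.86 for complex IV and 0.39 for complex V, and *Atp5g3* (-0.72) and *Atp5j* (-0.56) then passed the test as lower. Without the filter on low values, 7 genes of complex IV and 5 of complex V were called higher.

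**Figure D4:**
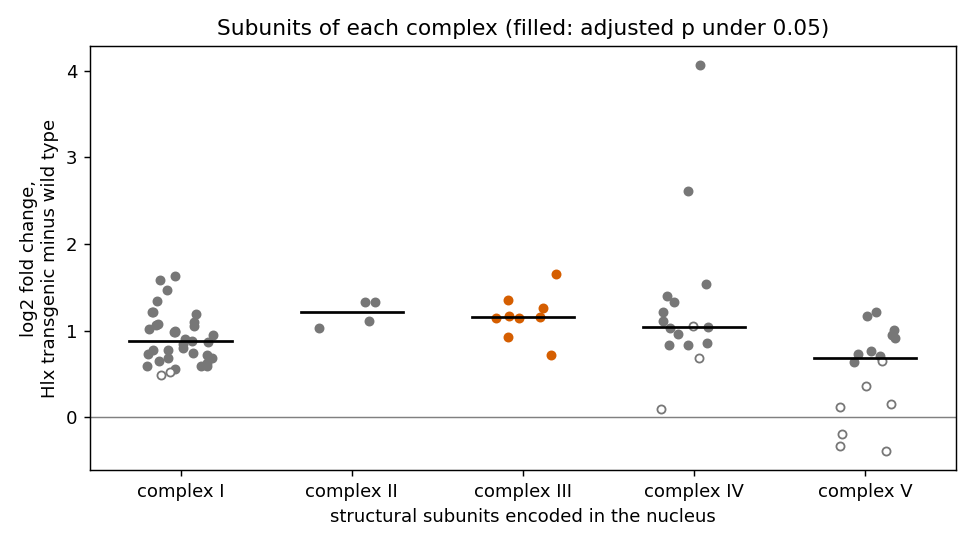
Log2 fold change (TG minus WT, on log2(FPKM + 1), y axis) of each nuclear-encoded subunit gene of complexes I to V, with a black line at the median, filled points for an adjusted p under 0.05 and open points for the rest. The 9 genes of complex III lie between 0.72 and 1.65, all filled, as are the 4 of complex II, while complexes I, IV and V hold open points. Those of complex IV are Cox4i2, Cox6a2 and Cox6b2, genes of low FPKM (means of 2.70 to 9.70 in either genotype). All 36 genes of complex I, open points included, had every TG mouse above every WT mouse.

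Of the 6 tested genes that assemble complex III, 4 were called higher. Their median log2 fold change was 0.48, beside 1.16 for the subunits, a difference that was not tested, and *Uqcc* and *Lyrm7* had larger values than the subunits *Uqcr11* and *Uqcrh*. *Uqcc* (Uqcc1), which helps to make cytochrome b, had 58.3, 39.3 and 48.3 FPKM in the TG and 21.6, 21.5 and 21.0 FPKM in the WT mice (log2 fold change 1.13, limma adjusted p = 0.0028). *Lyrm7*, a chaperone of the Rieske protein, had 14.9, 19.6 and 14.3 FPKM in the TG and 6.03, 9.60 and 6.80 FPKM in the WT mice (1.04, limma adjusted p = 0.010). *Bcs1l*, which inserts the Rieske protein, was higher by 0.43 (limma adjusted p = 0.019), and *Hccs*, the lyase that attaches heme to cytochromes c and c1, by 0.54 (limma adjusted p = 0.023). *Ttc19* (0.31, limma adjusted p = 0.092) and *AI462493* (Uqcc3, 0.24, limma adjusted p = 0.15) were not called. *Bcs1l* lost its call without TG replicate 1, WT replicate 2 or WT replicate 3, with adjusted p-values of 0.051 to 0.067 (limma). *Hccs* lost its call without TG replicate 3 or any of the WT replicates, with adjusted p-values of 0.056 to 0.077 (limma), and without the low value filter *Lyrm7* (0.061) and *Hccs* (0.081) were not called. Without WT replicate 2 or WT replicate 3, 2 of the 6 assembly genes were called. *Uqcc2*, *Uqcc5* and *Uqcc6* were not analysed here. *Pmpca* and *Pmpcb*, the subunits of the peptidase that removes mitochondrial targeting sequences and resembles the core proteins, were higher by 0.64 (limma adjusted p = 0.0047) and 1.04 (limma adjusted p = 0.0016).

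Enzymes that feed electrons into the ubiquinone pool fell into a group with large rises and a group that did not pass the test. *Etfdh*, which brings electrons from fatty acid oxidation, had 359, 275 and 325 FPKM in the TG and 104, 74.0 and 90.9 FPKM in the WT mice (log2 fold change 1.83, limma adjusted p = 0.00083). *Gpd2*, the mitochondrial glycerol-3-phosphate dehydrogenase, had 202, 144 and 173 FPKM in the TG and 47.9, 51.4 and 48.5 FPKM in the WT mice (1.78, limma adjusted p = 0.00058). Both values were above that of *Uqcrc1*. The complex II genes *Sdha* (1.33), *Sdhb* (1.33), *Sdhc* (1.03) and *Sdhd* (1.11) passed the test as well, so 6 of the 10 genes did. *Dhodh* of pyrimidine synthesis (0.36, limma adjusted p = 0.054), the sulfide oxidase gene *Sqrdl* (-0.20, limma adjusted p = 0.22), the proline dehydrogenase gene *Prodh* (-0.11) and the choline dehydrogenase gene *Chdh* (0.10) were not called. *Dhodh* had no overlap between genotypes and passed the test without TG replicate 2 (limma adjusted p = 0.0499), and *Sqrdl* passed it as lower under quantile normalization (-0.32, limma adjusted p = 0.039). *Prodh* changed sign without WT replicate 1 (0.22) and *Chdh* without WT replicate 2 (-0.11).

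Cytochrome c takes the electrons from complex III. Its somatic gene *Cycs* was listed at 3.57, 2.52 and 3.23 FPKM in the TG and 1.23, 1.23 and 0.98 FPKM in the WT mice (log2 fold change 0.93, limma adjusted p = 0.0048), far below any subunit of complex III. Of its windows of 100 bases, 24.7% also occur in 3 other genes, so part of its reads may be counted elsewhere. The testis form *Cyct* was listed at 0 in all 6 samples. Of the genes that join complexes III and IV into supercomplexes or bind there, *Higd2a* (0.66, limma adjusted p = 0.0090) and *Higd1a* (0.65, limma adjusted p = 0.017) were called higher. *Cox7a2l* was at 104, 115 and 144 FPKM in the TG and 135, 138 and 110 FPKM in the WT mice, and these ranges overlapped (-0.08, 95% interval -0.44 to 0.27). The *Higd1a* call was lost without TG replicate 3, WT replicate 2 or WT replicate 3 (limma adjusted p of 0.055 to 0.064) and without the filter (0.073). *Cox7a2l* was at 0.02 without TG replicate 1.

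**Figure D5:**
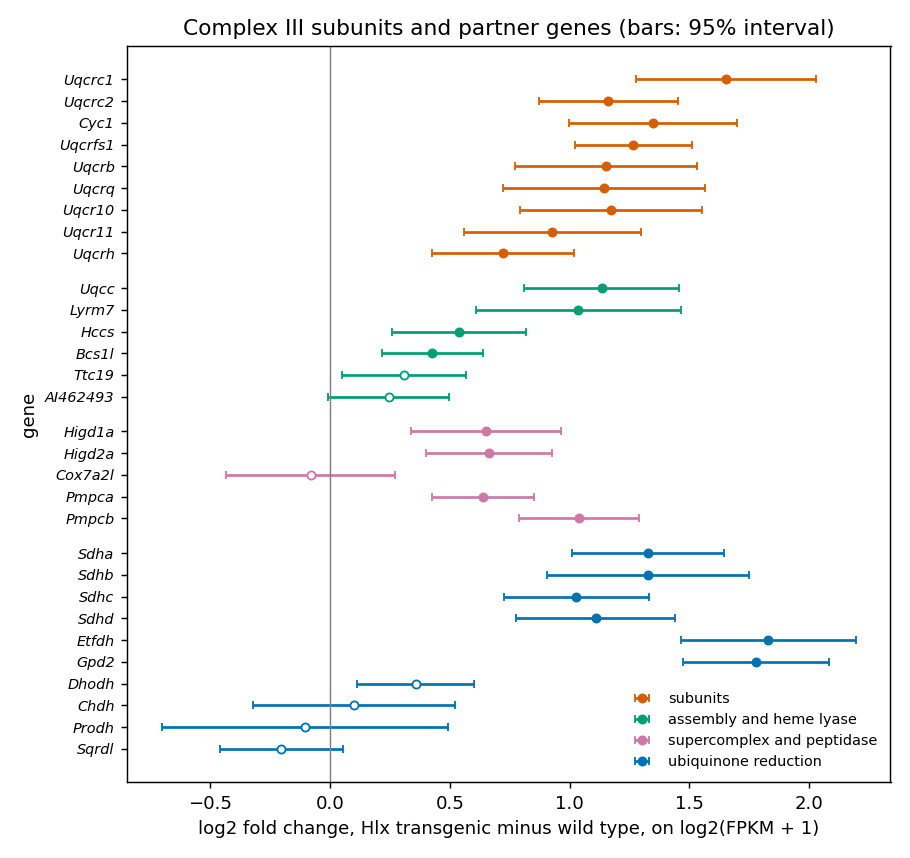
Log2 fold change (x axis, TG minus WT, on log2(FPKM + 1)) with its 95% interval from limma for the 9 complex III subunit genes and for genes that act beside the complex, with filled points for an adjusted p under 0.05. The subunits lie between 0.72 (Uqcrh) and 1.65 (Uqcrc1), and Cox7a2l, Chdh, Prodh, Sqrdl and AI462493 have intervals that include 0.

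Outside the gene lists, the 5 loci whose centred log2(FPKM + 1) over the 6 samples lay nearest to the mean of the 9 subunits, by root mean square difference, were *D10Jhu81e* (0.048), *Sod2* (0.056), *Ghitm* (0.061), *Cs* (0.067) and *Clpb* (0.070). *Sod2* is the superoxide dismutase of mitochondria, *Ghitm* an inner membrane protein, *Cs* the citrate synthase that opens the Krebs cycle, and *Clpb* a mitochondrial disaggregase. *Cs* had 995, 728 and 753 FPKM in the TG and 398, 387 and 343 FPKM in the WT mice. *Sod2* had 107, 87.7 and 89.4 FPKM in the TG and 43.0, 43.4 and 36.6 FPKM in the WT mice. The 5 loci were chosen for their likeness to the subunits in these same samples. That the genotypes are apart in them follows from this choice. The difference of single subunits from their own mean ran from 0.062 for *Uqcrc2* and 0.063 for *Uqcr10* to 0.236 for *Uqcrh* and 0.247 for *Uqcrc1*.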

How the data were processed

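RNA of iWAT was made into TruSeq libraries, without strand marks, and read as single ends of 100 bases. The submitters' processing notes name CASAVA 1.8.2, TopHat2 2.0.9, Bowtie2 2.1.0 and Cufflinks 2.2.1 with mm10. The authors deposited FPKM per gene locus and mouse, without counts, so no count test was run. Samples were grouped by their labels. From the deposited FPKM, log2(FPKM + 1) was computed for loci whose FPKM averaged above 1 in either genotype and tested with limma 3.58.1 in R 4.3.3 (eBayes with trend, two-sided, Benjamini-Hochberg adjustment over 11692 loci, adjusted p under 0.05). Fold changes on this scale understate those of low genes. Single values were tested by exact permutation over 20 arrangements. The limma test was checked on simulated data. Relative depth, read from steps between values under 0.3 FPKM, was 0.693 to 1.41 with WT replicate 3 as 1, so low values are less precise in TG replicates 1 and 3. Replicates are separate mice.

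The members and lists were chosen with earlier results of these data known. Named were all members, assembly, ubiquinone, cytochrome c, supercomplex and peptidase genes, the largest rise and up to 3 uncalled genes of complexes I, IV and V, *Hlx*, *Ucp1* and the 5 nearest loci. *Cox8b*, *Pdzd9*, *Xist*, *Adipoq* and *Fabp4* were named after their values were seen. Alternatives were a pseudocount of 0.1, other filters, median-ratio scaling, quantile normalization, sample weights, eBayes without trend, a replicate block and each mouse left out. Copies were sought in GENCODE transcripts (GRCm38) with BLAST 2.17.0, promoters came from RefSeq (GRCm38.p6), and figures were drawn with matplotlib 3.10.9 in Python 3.11.15.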

Additional observations from a re-analysis of the deposited data

How the results depend on the processing

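All 9 complex III subunits stayed called in the alternatives run, except *Uqcrh* without the filter on low values, and *Uqcrc1* had the largest and *Uqcrh* the smallest rise in each. Of 695 values of 49 named genes under the alternatives, 665 kept their direction and call, 15 lost the call, 11 gained it and 4 changed sign, and the cause was not tested. Without the filter, 748 loci were called higher and 381 lower. As single mice were left out (TG replicates 1 to 3, WT replicates 1 to 3), the counts ran from 780 to 1295 higher and from 329 to 906 lower. The 4 genes that changed sign, all uncalled, ran, with a mouse left out, from -0.29 to 0.22 (*Prodh*), -0.11 to 0.22 (*Chdh*), -0.213 to 0.0223 (*Cox7a2l*) and -0.0536 to 0.241 (*Cox4i2*). Quantile normalization moved the medians of complexes I, III, IV and V to 0.57, 0.85, 0.86 and 0.39. With the replicate number as a block (replicate block), 1230 loci were called higher and 656 lower, all 9 subunits among the higher, and *Ndufs5*, *Dhodh* and *Atp5g3* (the last as lower) gained a call. The numbers mark different mice, and the deviations of same-numbered samples correlated at 0.0129, 0.0344 and 0.0701, so they do not pair the samples. The TG over WT value of the ratio of complex III to complex IV was 0.856, and 1.06 without *Cox7a1* and *Cox8b*, a choice made, like leaving out single genes of the sums, after seeing the data. Depth was not known in reads, which limits genes of low FPKM such as *Cycs* more than the subunits.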
